A study of Rattus norvegicus with 2 samples.

Results

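The regions described here are H3K27ac peaks at the edges of acetylation deserts in rat sciatic nerve. A desert is a distance of 1 Mb or more between the end of a peak and the start of the next on a numbered chromosome (an autosome), and an edge peak is a peak longer than 500 bp on either side of it. The rule found 619 edge peaks among the 32996 peaks of the list, of which 32205 lie on autosomes. They made up 2.32% of the autosomal peaks over 500 bp. Because the rule used the distance between peaks and a minimum length, the number and the bare side of the edge peaks are descriptions and not findings.

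The study used chromatin immunoprecipitation and sequencing (ChIP-seq) to map histone H3 acetylated at lysine 27 in nerve from rats of the Sprague Dawley strain, taken at postnatal day 15. It comprised 1 H3K27ac library and 1 library of input chromatin, both labelled with the same strain, tissue and age. Nerves were pooled before fixation, so no value belongs to a single animal, and chromatin was sheared to fragments averaging 0.5 to 2 kb. The deposited list gives the chromosome, start and end of each peak, without height, score or read counts, and the depth is unknown.

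Acetylation of H3K27 is laid down by the coactivators CBP and p300, and it marks promoters and enhancers that are in use. Mammalian chromosomes alternate between gene-rich stretches and long stretches with few or no genes, known as gene deserts, and enhancers at the border of or inside such stretches can act over long distances on a single developmental gene. In nerve of this age, Schwann cells are wrapping axons in myelin, alongside fibroblasts, perineurial cells, vessels and immune cells. The list describes this mixture, and cell type markers could not be examined in a list of positions. Genes, input coverage and gaps of the genome assembly at the deserts were not analysed here. The genome build is not given in the sources used here, and the positions below are those of the deposited file.

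With 1 peak list there is no test over samples, and none of the differences below was tested. The intervals are exact 95% binomial intervals of a share, or order-statistic intervals of a median. They treat peaks as independent, cover counting error only and say nothing of other animals or libraries.

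The autosomes held 410 deserts, 1.27% of the 32185 distances between neighbouring peaks. Their summed length was 963 Mb, 35.3% of the summed spans between the outermost peaks of each autosome. The median desert was 1.62 Mb long, with quartiles at 1.25 and 2.48 Mb. There were 258 deserts under 2 Mb, 129 from 2 to 5 Mb and 23 over 5 Mb. Deserts over 5 Mb were thus few in number. Each desert has 2 sides, 820 in all, which were formed by 777 different peaks, since 43 peaks had a desert on both sides. Of those 777 peaks, 158 were exactly 500 bp long, here called the floor length, and are not edge peaks by the rule. Both sides were edge peaks at 258 deserts, 1 side at 134, and at 18 deserts both sides had floor-length peaks. Counted over sides, 20.7% (18.0 to 23.7%) were of the floor length, so that a peak with a desert on both sides counted 2 times. Counted per peak, 17.2% of autosomal peaks were 500 bp or shorter. Over sides that faced no desert, the floor-length share was 14.9% at distances under 5 kb. It was 22.4% at 200 to 500 kb and 21.9% (19.5 to 24.5%) at 500 kb to 1 Mb, so the share at deserts was not particular to them. A single autosomal peak, of 426 bp, was shorter than the floor length, and it did not lie beside a desert.

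The 3 shortest deserts measured 1000869 bp on chromosome 3, 1000956 bp on chromosome 17 and 1004573 bp on chromosome 4. Their edges were 630 and 500 bp, 1268 and 500 bp, and 664 and 1012 bp long. The 3 distances that just missed the minimum were 999725 bp on chromosome 4, with peaks of 3475 and 2017 bp, 998255 bp on chromosome 17, with 1925 and 500 bp, and 994747 bp on chromosome 9, with 2099 and 1886 bp. For length, the shortest edge peaks were 5 of 625 bp, and no autosomal peak had a length between 500 and 625 bp. With so few peaks at the thresholds, these values are given as a description.

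Edge peaks were short. Their median length was 1409 bp (interval 1301 to 1552 bp, n = 619), with quartiles at 873 and 2245 bp, while the other 26061 autosomal peaks over 500 bp had a median of 1847 bp (1829 to 1868 bp), with quartiles at 1117 and 3125 bp. Only 37.8% of edge peaks (34.0 to 41.8%) exceeded the median of those other peaks. Edge peaks of 1 kb or less were common, since 67.2% were longer than 1 kb against 79.4% of the others. Edge peaks over 2 kb made up 30.9%, so the length of most lay within the range of average fragment sizes given above.

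Long peaks were scarce at the edges. Peaks over 5 kb numbered 22 of the 619 edge peaks, or 3.55% (2.24 to 5.33%), where the share over all autosomal peaks over 500 bp was 10.4%. Above 10 kb there were 2 edge peaks, 0.323% (0.0392 to 1.16%), and 578 of the other peaks, 2.22%. The 619 edge peaks together covered 1.12 Mb. Left edges, those before a desert in coordinate order, and right edges were alike in length, with medians of 1477 bp (1290 to 1637 bp, n = 317) and 1347 bp (1260 to 1533 bp, n = 333). The intervals of the left and right medians overlapped widely.

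Peaks that face a somewhat shorter distance had a similar median length. The 732 peaks over 500 bp whose larger distance was 500 kb to 1 Mb had a median of 1448.5 bp (1357 to 1546 bp), and 2.73% of them were over 5 kb. These 732 peaks and the edge peaks had overlapping intervals for the median and for the share over 5 kb, so the short length of edge peaks did not begin at 1 Mb. Among shorter peaks the values lay farther apart, with lower quartiles of 962 bp for the 732 peaks and 873 bp for edge peaks. The shares over 1 kb were 73.0% (69.6 to 76.1%) and 67.2% (63.4 to 70.9%), with intervals that overlapped.

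**Figure D1:**
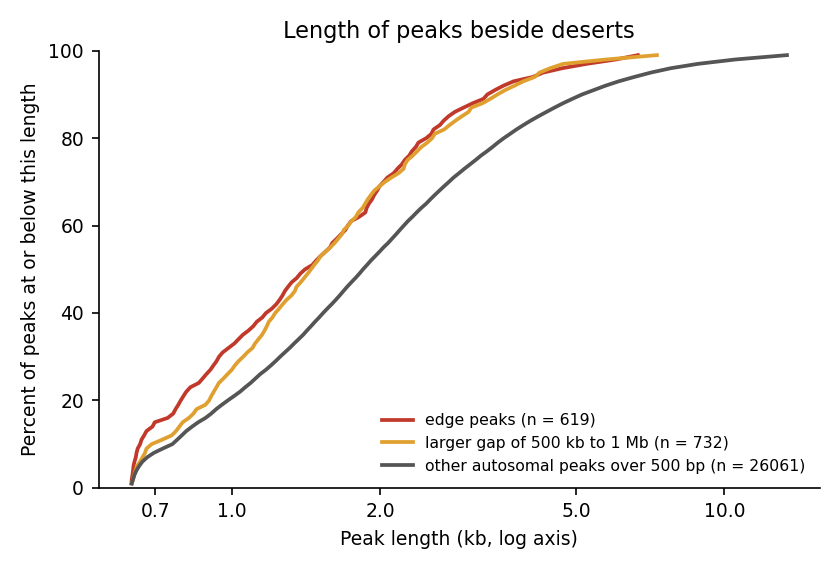
Cumulative distribution of peak length on a log axis, for 619 edge peaks, 732 peaks over 500 bp whose larger distance to a neighbour was 500 kb to 1 Mb, and 26061 other autosomal peaks over 500 bp. The lines of the first 2 sets run close together and to the left of the third, with medians of 1409, 1448.5 and 1847 bp.

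Away from the desert, most edge peaks stood apart from their next neighbour. The next peak on that other side lay within 12.5 kb, here called clustered, for 126 of 613 edge peaks, or 20.6% (17.4 to 24.0%). Another 229 (37.4%) had it between 12.5 and 100 kb, and 258 (42.1%, 38.1 to 46.1%) had no peak within 100 kb, here called bare. Among those 258 were 31 edge peaks with a second desert. For 6 edge peaks there was no further peak up to the end of the chromosome. The median distance on the other side was 63.9 kb (53.6 to 78.4 kb).

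The autosomal background was far more crowded. Counting each side of each autosomal peak over 500 bp, 44.4% of sides had the next peak within 12.5 kb and 13.3% had none within 100 kb. Excluding edge peaks, the median distance over sides was 15.3 kb. The excluded floor-length peaks beside a desert had 17.1% of 158 clustered (11.6 to 23.9%), 51.3% bare (43.2 to 59.3%) and a median distance of 107 kb. The intervals of the floor-length peaks and of the edge peaks overlapped for both shares. For the median distance they did not overlap, at 81.9 to 180 kb for floor-length peaks and 53.6 to 78.4 kb for edge peaks.

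Few edges were clustered, and taken over whole deserts, clustered edges on both sides were rare in turn. The other side could be measured at both ends of 404 deserts, with edges of any length. Of these, 17 had a clustered peak at both ends, 116 at 1 end and 271 (67.1%) at neither end. Whether the 2 ends of a desert went together in this was not tested. The lengths of the 2 edges of a desert went together hardly at all (Spearman's rho 0.058 across the 258 deserts with 2 edge peaks, which share 1 library). The length of the desert and the mean length of its edges gave a rho of 0.031 over the same deserts.

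Edge peaks lay at the far end of a gradual change that ran through the whole list. When every side of every autosomal peak over 500 bp was sorted by the distance to the next peak, the median length went from 2239 bp (2195 to 2277 bp) at distances under 5 kb to 1828.5 bp at 12.5 to 25 kb and 1604 bp at 50 to 100 kb. It was 1476.5 bp (1422 to 1531 bp) at 200 to 500 kb and 1444 bp (1354 to 1516 bp) at 500 kb to 1 Mb. Deserts of 1 to 2 Mb gave 1387 bp (1281 to 1567 bp, 402 sides) and those of 2 to 5 Mb gave 1349 bp (1215 to 1606 bp, 209 sides). The order of the last 4 of these values cannot be told from their intervals, which overlap. At deserts over 5 Mb the median was 1702 bp, but with 39 sides the interval of 1144 to 2234 bp covered the medians of all classes above 5 kb.

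The other side followed the same course. It was clustered for 56.0% of sides whose first distance was under 5 kb, for 33.9% at 50 to 100 kb, for 22.2% (19.4 to 25.2%) at 500 kb to 1 Mb and for 18.8% (15.1 to 23.0%) at deserts of 1 to 2 Mb. The bare share went the other way, from 7.36% under 5 kb to 18.2% at 50 to 100 kb, 42.8% (39.4 to 46.3%) at 500 kb to 1 Mb and 44.5% (39.5 to 49.5%) at 1 to 2 Mb. A bare stretch was thus often followed by another, on both sides of the minimum that defines a desert. At the longest deserts, those over 5 Mb, the clustered share was 30.8% (17.0 to 47.6%) and the bare share 38.5% (23.4 to 55.4%), which the few sides leave wide. A desert was on the other side of 0.539% of sides whose first distance was under 5 kb. This share was 4.56% at 200 to 500 kb and 6.59% at 500 kb to 1 Mb. It was 6.53% at deserts of 1 to 2 Mb and 14.98% at those of 2 to 5 Mb. Sides just below the minimum thus had a desert on the other side about as often as those at deserts of 1 to 2 Mb.

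**Figure D2:**
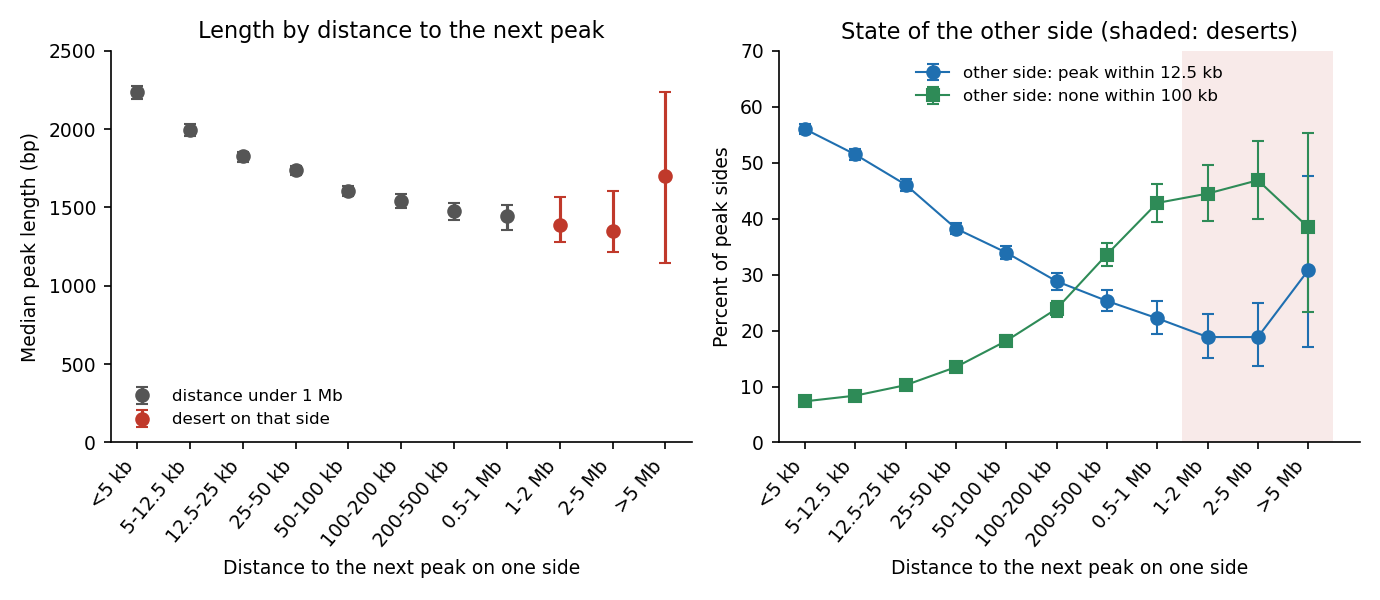
Left, median length in bp of autosomal peaks over 500 bp by the distance to the next peak on one side, with order-statistic 95% intervals; red points are sides that face a desert. Right, percent of those sides whose other side had a peak within 12.5 kb (blue) or none within 100 kb (green), with exact binomial 95% intervals; the median goes from 2239 bp under 5 kb to 1387 bp at 1 to 2 Mb, and the clustered share from 56.0 to 18.8%.

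Edge peaks were also divided by their other side. Clustered edge peaks had a median of 1643 bp (1477 to 1948 bp, n = 126), those with the next peak at 12.5 to 100 kb had 1290 bp (1171 to 1552 bp, n = 229), and those with 100 kb to 1 Mb of bare sequence had 1389 bp (1228 to 1637 bp, n = 227). The interval of the clustered edge peaks overlapped both others, and the 3 medians did not follow the distance. Long peaks were mainly among the clustered: 13 of 126 (10.3%) were over 5 kb, against 6 of 229 and 3 of 227. The clustered edge peaks thus held 13 of the 22 edge peaks over 5 kb. Peaks without a desert showed the same order of classes. At a first distance of 100 kb to 1 Mb, 138 of 1720 clustered peaks (8.02%) were over 5 kb, against 98 of 2803 and 12 of 838 (1.43%). At 12.5 to 100 kb these were 1001 of 9039 (11.1%), 318 of 5229 (6.08%) and 98 of 2803. The order was thus not particular to edge peaks.

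Peaks with the same other side but a shorter first distance were then set beside the edge peaks. With a clustered other side, the median was 1742 bp (1673 to 1818 bp, n = 1720) where the first distance was 100 kb to 1 Mb and 1947 bp (1909 to 1991 bp, n = 9039) where it was 12.5 to 100 kb. The interval of clustered edge peaks, 1477 to 1948 bp, held both values. With a bare other side of 100 kb to 1 Mb, edge peaks at 1389 bp stood beside 1335 bp (1258 to 1404 bp, n = 838) for peaks bare on both sides without a desert, and the intervals overlapped. The edge peaks with the next peak at 12.5 to 100 kb, at 1290 bp (1171 to 1552 bp), were the class in which the values lay farther apart. Peaks with that other side had a median of 1513 bp (1474 to 1562 bp, n = 2803) at a first distance of 100 kb to 1 Mb, where the intervals overlapped, and of 1657 bp (1620 to 1693 bp, n = 5229) at 12.5 to 100 kb, where they did not.

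Walking inward from a desert, the median length reached the interior value, within its interval, from the fourth peak on except at the eighth, while spacing stayed wider at most of the positions followed. This was followed along the first 10 peaks from 467 desert sides, in stretches of at least 20 peaks. The first peak, where longer than 500 bp, had a median of 1404 bp (1268 to 1576 bp, n = 367), the second 1609 bp (1476 to 1772 bp), the third 1663 bp and peak 5 had 1794.5 bp (1671 to 1967 bp). Peaks farther in than the first 10 had 1867 bp (1844 to 1890 bp). The interval at the eighth peak was 1600 to 1839 bp, below that interior median.

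Spacing showed a sharper step. The median distance from the first to the second peak was 57.8 kb (46.1 to 71.1 kb), and from the second to the third 28.4 kb (24.1 to 36.7 kb), compared with 14.8 kb farther in. The smallest median of the 10 positions was 17.2 kb (14.7 to 22.6 kb), from peak 7, and at peak 10 it was 20.99 kb (16.9 to 25.5 kb). Only the intervals at peaks 7 and 8 held the interior value. At peak 10, 36.4% of the distances inward were within 12.5 kb (32.0 to 40.9%), against 46.1% farther in. Floor-length peaks made up 21.4% of first and 23.1% of second peaks, 17.8% of peaks in position 5 and 16.8% of those farther in. These comparisons count 1 peak per desert side at each position but every peak farther in, where crowded clusters weigh more.

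Counted by distance in place of order, the density of peaks did not fall towards the desert within the first 1 Mb. In 424 desert sides of stretches of at least 2 Mb, the first 100 kb beyond the edge peak held 17.4 further peaks per Mb, and the 10 bins up to 1 Mb ranged from 14.1 to 17.9 per Mb. The first bin was empty at 42.5% of these sides and the last, from 900 kb to 1 Mb, at 42.2%. The mean over all autosomal sequence outside deserts was 18.2 peaks per Mb. That mean includes the peaks at the desert edges, which the bins leave out, so it cannot be ranked against them. The number of peaks near a desert was therefore close to that 1 Mb farther in, and the first 100 kb was empty about as often as the last. The first bin starts at a peak and the last does not, so they are not like for like. Over the sides of all autosomal peaks over 500 bp, 13.3% had no peak within 100 kb, below the 42.5% of the first bin. By order, the peak directly at the border was short, and its median distance to the next peak was wider than that between peaks farther in.

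**Figure D3:**
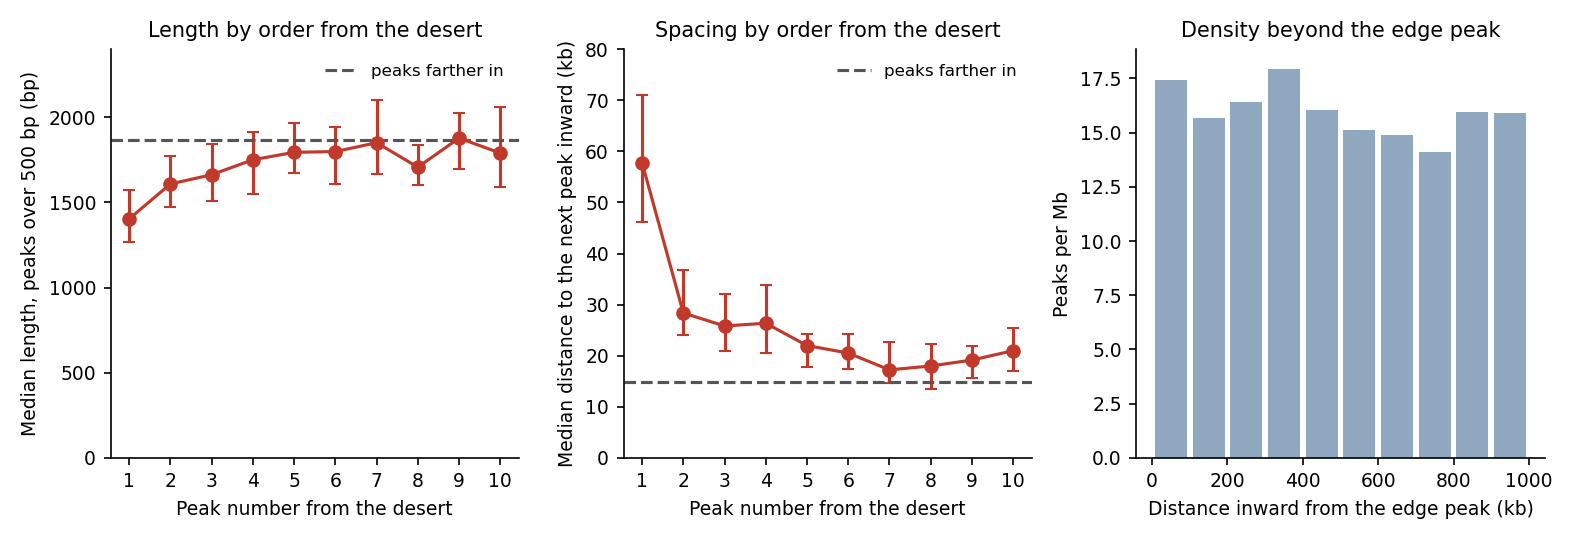
Left and middle, median length (bp, peaks over 500 bp) and median distance to the next peak inward (kb) for the first 10 peaks from 467 desert sides, with 95% intervals; dashed lines mark peaks farther in, at 1867 bp and 14.8 kb. Right, peaks per Mb in bins of 100 kb beyond the edge peak over 424 desert sides, between 14.1 and 17.9 in every bin.

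Most edge peaks were the only peak of their domain. Domains were made by joining peaks of any length wherever they lay within 12.5 kb. Edge peaks fell into 616 domains, of which 493 (80.0%) were a single peak, whereas 63.4% of the 17435 autosomal domains without a desert beside them were. Domains of 5 or more peaks were 8 of the 616 (1.30%) and 5.62% of those without a desert. The median length covered by peaks was 1.70 kb per domain with an edge peak and 2.00 kb per domain without a desert, the latter including single peaks of 500 bp. The domain of an edge peak with the most covered length had 32.1 kb, and the largest without a desert had 114.5 kb.

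Every autosome had edge peaks, from 12 on chromosomes 19 and 20 to 79 on chromosome 2. As a share of a chromosome's peaks they ranged from 0.824% on chromosome 10 to 3.38% on chromosome 2 and 3.13% on chromosome 15. Deserts took up 17.6% of the span of chromosome 10 and 16.7% of that of chromosome 17, but 49.1% of chromosome 4, where 1 desert alone measured 66.0 Mb. Chromosomes 15, 2 and 13 followed with 44.9, 43.7 and 43.6%. The number of deserts per 100 Mb varied less, from 10.9 on chromosome 17 to 19.2 on chromosomes 15 and 16.

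The median edge peak was shorter than the median of the other peaks over 500 bp on 18 of 20 autosomes. Differences (edge minus other) reached -860 bp on chromosome 16, where the medians were 1053 and 1913 bp. On chromosome 6 the sign was reversed, with 1892 and 1784.5 bp and a difference of 107.5 bp. The second exception was chromosome 18, with 1880 and 1843 bp, and chromosome 4 was nearly level, with 1807 and 1823 bp. Edge peaks were a varied set on each chromosome, with 12 to 79 peaks behind each median. Medians of the other peaks kept within a narrow band, with 1730 bp (chromosome 17) the lowest and 1945.5 bp (chromosome 7) the highest. The clustered share of edge peaks was below that of the sides of other peaks on 19 of 20 autosomes. Chromosome 11 was the exception, with 10 of 24 edge peaks clustered (41.7%) against 40.2% of sides, and chromosome 6 had the lowest share, 2 of 31 (6.45%).

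**Figure D4:**
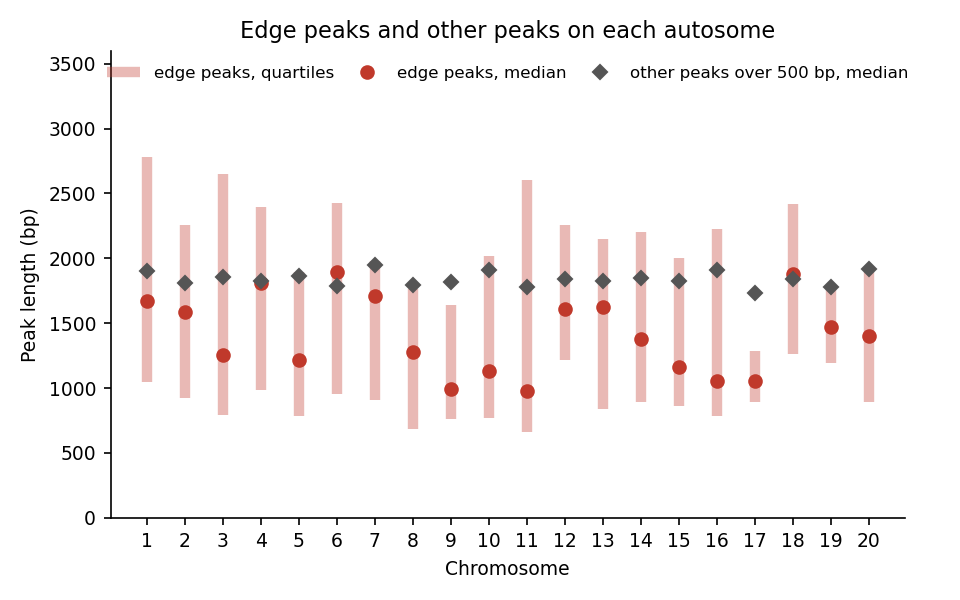
Length in bp of edge peaks on each autosome (red points, medians; bars, quartiles) and of other autosomal peaks over 500 bp (grey diamonds, medians). The red median is below the grey on every autosome except 6 and 18.

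Among single edge peaks, the longest lay at chr6:146958585-146974257, a peak of 15.7 kb before a desert of 5.86 Mb, with its next neighbour 39.9 kb away. The second, at chr1:277631060-277645756, was 14.7 kb long, followed a desert of 2.58 Mb and had a neighbour at 3.91 kb. A peak of 9.28 kb at chr12:1430851-1440133 preceded a desert of 2.47 Mb, with a neighbour at 2.65 kb. These 3 were followed by peaks of 8.27 kb (chr2:283534226-283542499), 7.78 kb (chr1:108408795-108416572) and 6.90 kb (chr7:127109647-127116549). The last of these had its neighbour 513 bp away.

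The rest of the 10 longest were 6.75 kb (chr1:200382157-200388905), 6.33 kb (chr4:175454181-175460506), 6.26 kb (chr3:56363295-56369554) and 6.25 kb (chr3:59491362-59497614). Of the 10, 5 had a neighbour within 12.5 kb on the other side, and only the peak at chr3:56363295-56369554 was bare, with 384 kb to the next. The desert beside them ranged from 1.07 to 6.22 Mb, so long edge peaks occurred at short and long deserts.

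The longest deserts were closed by ordinary peaks. The desert of 66.0 Mb on chromosome 4 ran from a floor-length peak at chr4:67355349-67355848 to an edge peak of 1115 bp at chr4:133355986-133357100, with further peaks 26.9 and 21.9 kb outside them. It was far longer than any other, and whether the assembly, the mapping or the deposited list has a gap there was not tested. The next, 20.5 Mb on chromosome 2, lay between edge peaks of 1035 bp (chr2:20333600-20334634) and 2298 bp (chr2:40818423-40820720). The first of these had a neighbour at 0.779 kb, and the other stood 216 kb from the next peak.

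Chromosome 19 had a desert of 11.7 Mb between a floor-length peak at chr19:11862159-11862658 and a peak of 1702 bp at chr19:23588436-23590137. A desert of 11.6 Mb on chromosome 13 had edges of 636 bp (chr13:2805379-2806014) and 2234 bp (chr13:14359374-14361607). On chromosome 6, peaks of 1879 bp (chr6:9896272-9898150) and 2171 bp (chr6:20275224-20277394) bordered 10.4 Mb. The edges of these 3 deserts were 2234 bp long at most.

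Ranks 6 to 10 were deserts of 6.50 to 9.33 Mb on chromosomes 14, 15, 7, 11 and 7 again. Their left edges were 500 bp (chr14:45889009-45889508), 1604 bp (chr15:74339294-74340897), 791 bp (chr7:3368810-3369600), 2793 bp (chr11:3296578-3299370) and 652 bp (chr7:83646255-83646906). Their right edges were 4283 bp (chr14:55217184-55221466), 928 bp (chr15:81131747-81132674), 2040 bp (chr7:9998696-10000735), 2322 bp (chr11:9843622-9845943) and 2337 bp (chr7:90144557-90146893). Across all 10 deserts the edges ranged from the floor length to 4283 bp, and 3 of 20 were of the floor length.

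Edge peaks with a desert on both sides stand at least 1 Mb from any other peak. There were 31, on 15 chromosomes, and a further 12 such peaks had the floor length. The 2 deserts around each added up to 4.32 Mb in the median and 13.8 Mb at most. Their median length was 1279 bp (942 to 1865 bp), and none exceeded 5 kb, which with 31 peaks allows a share of up to 11.2% (exact binomial). The longest, at chr14:55217184-55221466, spanned 4283 bp between deserts of 9.33 and 4.12 Mb. The next were 3280 bp at chr15:104530880-104534159 (deserts of 1.40 and 1.07 Mb), 3117 bp at chr3:44847826-44850942 (1.01 and 1.73 Mb), 2543 bp at chr5:42690196-42692738 (1.35 and 1.09 Mb) and 2234 bp at chr13:14359374-14361607 (11.6 and 2.25 Mb). A peak of several kilobases could therefore stand alone in more than 10 Mb.

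Successive deserts on a chromosome enclose islands of peaks, and island size was spread over a wide range. The 390 islands held from 1 to 918 peaks, with a median of 28.5 and quartiles at 5 and 90. Islands of 1 peak numbered 43, those of 2 peaks 27 and those of 3 peaks 16. These 86 islands were 22.1% of all islands but held 145 peaks, 0.450% of autosomal peaks. At the other end, 91 islands of more than 100 peaks held 62.6% of autosomal peaks.

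By definition, most peaks of small islands lie beside a desert, and none of their edge peaks was long. Edge peaks before the first or after the last desert of a chromosome lie in no island and are not counted here. No edge peak of an island of up to 3 peaks was longer than 5 kb (0 of 31 and 0 of 68), with the longest at 4397 bp. Islands of 4 to 20 peaks had 9 of 147 (6.12%) and larger islands 12 of 340 (3.53%). For the 31 edge peaks of islands of 1 peak, the interval reached 11.2%, above both of these shares. Median lengths did not follow island size: they were 1279 bp (942 to 1865 bp) for islands of 1 peak, 1484 bp (1144 to 1865 bp) for 2 or 3, 1519 bp (1317 to 1779 bp) for 4 to 20 and 1396 bp (1263 to 1576 bp) for more than 20. All 4 intervals overlapped. Islands of 2 or 3 peaks were loose groups, with a median span of 176 kb and a longest of 1.21 Mb.

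**Figure D5:**
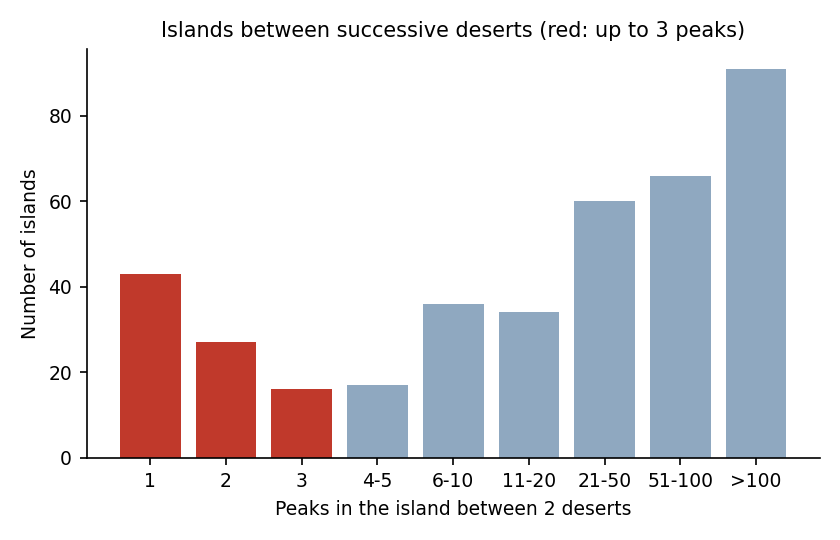
Number of islands between successive deserts by how many peaks they hold, over 390 islands on 20 autosomes. Islands of up to 3 peaks (red) number 86, and those of more than 100 peaks number 91.

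Some small islands lined up into runs, defined as 3 or more deserts in succession with at most 3 peaks in each island between them. There were 16 runs on 10 chromosomes, which took in 55 of the 410 deserts (13.4%) and 137 Mb of span. Between their deserts stood 63 peaks, of which 20 (31.7%, 20.6 to 44.7%) had the floor length. The share of autosomal peaks of 500 bp or less was 17.2%. In all islands of up to 3 peaks, which include those of the runs, it was 24.1%, and in islands of 1 peak 27.9%. The interval of the runs held both island values, so runs cannot be told from small islands in this. Chromosome 5 had 4 runs, and chromosomes 2, 13 and 18 had 2 each. Runs of 3 deserts numbered 11, runs of 4 numbered 4, and 1 run had 6.

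The run of 6 deserts lay on chromosome 13 from 2806015 to 30257638. In 27.5 Mb it held 6 peaks that together covered 8.39 kb, or 0.0306% of the span. From left to right they were peaks of 2234 bp (chr13:14359374-14361607), 1865 bp (chr13:16614831-16616695), 809 bp (chr13:21797235-21798043), 708 bp (chr13:25726162-25726869), 2275 bp (chr13:25997191-25999465) and 500 bp (chr13:27210723-27211222). The fourth and the next were 270 kb apart, and all other distances were deserts. The 3 largest of these isolated peaks thus exceeded the median edge peak.

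Of the 4 runs with 4 deserts, the longest spanned 13.0 Mb of chromosome 2 (84227953 to 97218294), with 4 peaks that covered 3.93 kb. Those peaks were 1032 bp (chr2:85591602-85592633), 500 bp (chr2:85679382-85679881), 1895 bp (chr2:89260251-89262145) and 500 bp (chr2:94123918-94124417). The next was on chromosome 15 from 97155843 to 105607991, 8.45 Mb with peaks of 2146 bp (chr15:100295877-100298022), 500 bp (chr15:100532664-100533163), 500 bp (chr15:103133420-103133919) and 3280 bp (chr15:104530880-104534159). In both runs 2 of the 4 peaks had the floor length.

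Edge peaks overlapped with other classes of peak in the list to differing degrees, which are set here beside the 2.32% that edge peaks made up of all autosomal peaks over 500 bp. Of the 580 autosomal peaks of 10 kb or longer, 2 were edge peaks (0.345% of that class and 0.323% of edge peaks). Of 381 peaks of 5 to 10 kb without a neighbour within 12.5 kb, 8 were (2.10% and 1.29%). The 2.32% includes peaks with such a neighbour, so it is not a like background for this class. Of 1113 peaks over 500 bp with no other peak within 100 kb, 264 were edge peaks, 23.7% of that class and 42.6% of edge peaks; here a chromosome end counts as bare. The rule itself fixes the bare side of every edge peak, so nothing is read from this last share.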

How the data were processed

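The authors deposited 1 peak list, which by its name belongs to the H3K27ac library. Its values are positions in base pairs, and it holds no score, height or count. The submitters' processing notes list HOMER, Bowtie and CASAVA 1.8.2 but no settings. For the build, the calling threshold and the role of the input: not given in the sources used here. On 13 of 21 chromosomes a peak lay beyond the last gene of the GRCr8 table at hand, so no gene, promoter or sequence was joined. To count from 1, 1 was added to each deposited start, as for BED files.

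Peaks of chromosomes 1 to 20 were sorted by start, and the distance to the previous peak was its start minus the previous end. X was left out by the rule. The tools were matplotlib 3.10.9, scipy 1.17.1, pandas 2.3.3 and numpy 2.4.6 under Python 3.11.15. The other side of an edge peak with 2 deserts was the shorter desert. In the classes by distance, each peak entered once per side, so a peak with both sides in 1 class counted there 2 times and the intervals of such classes are somewhat too narrow. On simulated data with known deserts, the counts of deserts, edge peaks and edge peaks with deserts on both sides were recovered. The share of edge peaks longer than the median of the others was recovered too. The other measures were not checked in this way, and the simulated list had no floor-length peaks. The edge peaks, distances, alternatives and the rule for regions named (edges of the 10 longest deserts, the 10 longest edge peaks, the 5 longest with deserts on both sides and the 3 runs with the most deserts, ties by span) were chosen with earlier results of these data known.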

Additional observations from a re-analysis of the deposited data

How the results depend on the processing

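With 1 library, no library could be left out, and no paired analysis was possible because there is 1 ChIP and 1 input library and 1 peak list without values per library. Leaving out each autosome in turn moved no median or share beyond its interval. For counts the limit was a change of 1.5 times, which no autosome held enough items to reach, so nothing is read from it. Without 1 autosome, deserts numbered 361 to 402, edge peaks 540 to 607, those with deserts on both sides 24 to 31 and runs 12 to 16. The share of edge peaks longer than the median of other peaks was 36.3 to 40.4% under all 28 alternatives. Counts follow the minimum that defines a desert. With 500 kb there were 937 deserts, 1351 edge peaks, 122 with deserts on both sides and 67 runs; with 2 Mb there were 152, 237, 11 and 2. Without a minimum length the median was 1108 bp; with peaks longer than 1000 bp it was 1934.5 bp, the clustered share was 24.5%, and 20 peaks had deserts on both sides. Distances taken between peaks longer than 500 bp only gave 50 of these. The clustered share was 11.9% within 5 kb and 30.8% within 25 kb, the bare share 55.8% from 50 kb and 30.2% from 200 kb. Runs with islands of 1 peak numbered 7. Lengths of 1000 bp or less held 46.8% of desert sides. The unknown depth limits which weak peaks could break a desert.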

Other observations

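Rows of the deposited file are not in genomic order, and what sets their order is not given. Edge peaks stood at a median row of 17147 (quartiles 8512.5 and 24375.5), and other autosomal peaks over 500 bp at 16169 (8095 and 24471). The first 3300 rows held 9.53% of edge peaks and 9.74% of those other peaks.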
